A study of Mus musculus with 8 samples.

Results

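The genes described here are 56 genes of mitosis and chromosome segregation, chosen by name for their known roles: cyclins and kinases that drive entry into mitosis, condensin, the kinetochore, the spindle checkpoint, the kinesin motors and the cytokinesis machinery. All 56 were found among the 23084 genes listed for these samples. RNA was sequenced from myeloid cells sorted from the spleens of 6-8 week old C57BL/6 mice, as CD11b+Ly6C+ (monocytic) or CD11b+Ly6G+ (granulocytic) cells. The mice were either wt or Lmna KO, a knockout restricted to the myeloid lineage in which floxed Lmna alleles are deleted by a Cre expressed from LysM, and each of the 4 combinations of genotype and subset has 2 samples, 8 in all. The sample titles give the subset, whereas a separate marker field reads CD11b+Ly6C+ for all 8 samples. Nothing says how many mice stood behind a sample. The study's main text does not say whether the mice used for RNA sequencing bore tumors.

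Dividing cells pass from S phase, in which DNA is copied, through G2 into mitosis. Cyclin B and Cdk1 start mitosis, condensin compacts the chromosomes, kinetochores tie them to spindle microtubules, and the checkpoint holds back the anaphase-promoting complex (APC/C), a ubiquitin ligase, until every chromosome is attached. APC/C then brings about the loss of cyclin B and of securin, which frees separase to cut cohesin, and cytokinesis parts the daughter cells. In the myeloid lineage, precursors such as promyelocytes divide, whereas mature neutrophils do not, so RNA of these genes is commonly read as a sign of dividing cells in a sample. Many of the genes are transcribed in G2 and mitosis through promoters with CCAAT boxes, bound by NF-Y, and a CHR (cell cycle genes homology region), bound by DREAM and MuvB complexes. Genes of S phase more often carry E2F sites.

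The value available for each gene was the authors' mean over libraries of its read counts divided by the library's size factor, given below as the mean signal. Its lowest values were exact sums of 8 fixed steps. Each of the 1730 values under 0.5 had exactly 1 solution in whole reads of 8 libraries, as many as there are samples. The mean signal is therefore read as an average over both subsets and both genotypes, and it cannot be split by sample. No member could be solved for its reads in each library, since even for the lowest, Cenpn, a very large number of combinations fitted. No SD between samples can be given for any gene. The only error available was counting error. It was at most 4.14% for Cenpn, with between 584 and 1401 reads behind its mean, and smaller for each of the other members. Differences between genes were not tested against it. The levels of wt and Lmna KO cells, and of the subsets, were not analysed here.

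Promoter sequences were available for 48 of the 56 genes, in RefSeq's GRCm38.p6 tables, from 250 bases before to 50 bases after the start. Those without one were Aurkb, Ccna2, Incenp, Kif20a, Pbk, Smc4, Spc24 and Tpx2, so they were not searched. The CHR was searched as TTTGAA or TTCGAA, the CCAAT box as CCAAT and E2F sites as TTTCGCGC, TTTGGCGC, TTCCCGCC or TTGGCGGG, each on both strands. A CCAAT box read on the other strand (ATTGG) can share letters with TTGGCGGG. The promoters shown run from 100 bases before to 15 bases after the start, 5′ to 3′ along the gene's strand, with CHR and CCAAT matches on either strand in capitals. They were picked after the matches were seen. The first 5 hold both motifs, and Birc5 is shown because it held none.
Ccnb2, chr9:70421540-70421654, minus strand: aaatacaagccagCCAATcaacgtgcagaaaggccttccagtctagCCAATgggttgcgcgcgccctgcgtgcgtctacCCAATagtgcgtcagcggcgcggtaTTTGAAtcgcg
Cdk1, chr10:69352898-69353012, minus strand: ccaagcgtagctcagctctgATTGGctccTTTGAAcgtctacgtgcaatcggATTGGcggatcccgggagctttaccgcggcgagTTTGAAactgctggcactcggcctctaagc
Cdc20, chr4:118437329-118437443, minus strand: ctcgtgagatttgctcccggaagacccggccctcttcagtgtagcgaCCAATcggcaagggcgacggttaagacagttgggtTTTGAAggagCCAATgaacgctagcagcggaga
Kif23, chr9:61946785-61946899, minus strand: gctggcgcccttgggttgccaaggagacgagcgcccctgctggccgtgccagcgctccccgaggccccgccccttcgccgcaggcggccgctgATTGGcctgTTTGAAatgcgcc
Top2a, chr11:99024175-99024289, minus strand: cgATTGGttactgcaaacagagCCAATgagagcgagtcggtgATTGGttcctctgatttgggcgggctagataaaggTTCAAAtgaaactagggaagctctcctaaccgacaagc
Birc5, chr11:117849137-117849251, plus strand: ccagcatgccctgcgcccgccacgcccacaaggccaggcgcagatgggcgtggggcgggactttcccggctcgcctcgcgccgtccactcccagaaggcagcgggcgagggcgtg
Within the stretch shown, the Ccnb2 promoter has 3 CCAAT boxes, their first bases 87, 54 and 21 bases before the start, followed by a CHR whose first base is base 5 of the transcript. A further CHR of Ccnb2 lies upstream of it, at -167. In the stretch shown of Cdk1, CHR matches begin 71 and 15 bases before the start and CCAAT boxes 80 and 48 bases before it, with a further CCAAT box at -208. In Cdc20, the CHR lies between CCAAT boxes at -53 and -8. Kif23 carries its CCAAT box at -7, just upstream of the CHR.

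A CHR was found in 38 of the 48 promoters (79.2%), against 19.4% of all 27025 promoters and 18.2% of the 17491 promoters of coding genes. A CCAAT box was found in 35 (72.9%, against 37.9% of all promoters), and both in 33 (68.8%, against 7.70%). E2F matches were rarer, in 6 (12.5%, against 3.80%): Kif18a, Melk, Ncapd2, Cenpn, Kif15 and Cdk1. The genes of DNA replication and S phase showed the opposite balance, with a CHR in 9 of 39 promoters (23.1%) and an E2F match in 18 (46.2%). The other genes of the pathway, which are further kinetochore, cohesin, APC/C, condensin II, centrosome and regulator genes, stood in between, with a CHR in 36 of 88 promoters (40.9%) and an E2F match in 18 (20.5%). These are counts of letters, given with no test, and no match means only that the letters are not in this window.

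**Figure D1:**
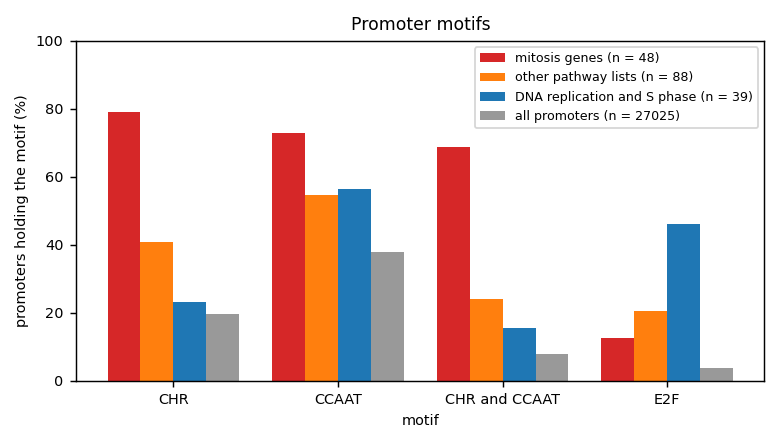
Share of promoters (y axis, %) that hold each motif (x axis) in 300 bases around the start, for the mitosis genes, the other pathway genes, the S phase genes and all promoters. The CHR bar stands at 79.2% for the mitosis genes and at 19.4% for all promoters, whereas the E2F bar is highest, at 46.2%, for the S phase genes.

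Among the classes, a CHR was present in the promoters of 9 of 10 kinesins, 4 of 4 cytokinesis genes, 5 of 7 centromere and kinetochore genes, 4 of 5 checkpoint genes, 3 of 4 condensin genes, 4 of 6 cyclins and kinases, 4 of 5 anaphase genes, 2 of 3 spindle proteins, 1 of 2 genes of the chromosomal passenger complex, and both Mki67 and Top2a. Among the promoters searched, Kif18a was the kinesin without one, and Cenpe and Nuf2 were the kinetochore genes without one. Kif20a and Spc24 had no promoter sequence. Nuf2, Nusap1, Ncaph, Mad2l1, Pttg1 and Birc5 held none of the 3 motifs. Top2a held the most, with 4 CHR and 6 CCAAT matches.

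The CHR matches sat close to the start. Of 51 matches in the members' promoters, 76.5% began no more than 100 bases before the start or after it, against 41.2% of the matches in all promoters, and their median position was 5 bases before the start. The 79 CCAAT boxes lay further upstream, at a median of 67 bases before the start. In the 33 promoters with both, taking the nearest pair, the CCAAT box lay upstream of the CHR in 26 (78.8%), against 46.5% of the 2082 promoters with both in the whole set. It lay upstream and within 50 bases in 21 (63.6%), against 22.4%. The median distance was 25 bases, against 61. Members also held more CCAAT boxes per promoter with a box: 79 in 35 promoters, against 14793 in 10248 of all promoters. More boxes can by themselves shorten the distance of the nearest pair, and no allowance was made for that. This spacing was looked at after the sequences above had been seen.

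**Figure D2:**
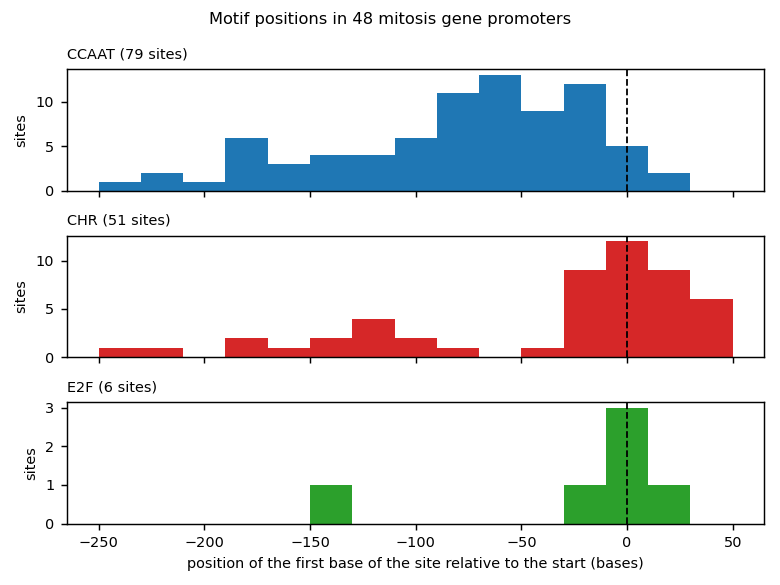
Number of motif matches (y axis) by the position of their first base relative to the start (x axis, bases, in bins of 20) in the 48 promoters, for 79 CCAAT, 51 CHR and 6 E2F matches. CHR matches pile up around the start, and CCAAT boxes upstream of it.

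The members' levels were compared with those of the 15697 coding genes listed, as mean signal per kilobase of the gene's exons in GENCODE M21 (mm10), which also gives the gene positions below. The members lay in the middle of that range. Their median was 89.6 per kb, at percentile 56.7 of the coding genes, whose own median was 60.2 per kb and whose quartiles were 4.90 and 238. Of the 56 members, 36 (64.3%) were above the coding median, 49 lay between the quartiles, 7 were at or above the 75th percentile and 0 at or above the 90th. Against coding genes with a mean signal of at least 10, the share above the median was 39.3%. Whether the members sit above or below the typical gene thus depends on which genes are compared. The same holds for the counts by class and by list below, which use the median of all 15697 coding genes listed. Together they held 0.142% of the summed mean signal of 25236459, with Mki67, Smc4 and Top2a giving 30.4% of that part.

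**Figure D3:**
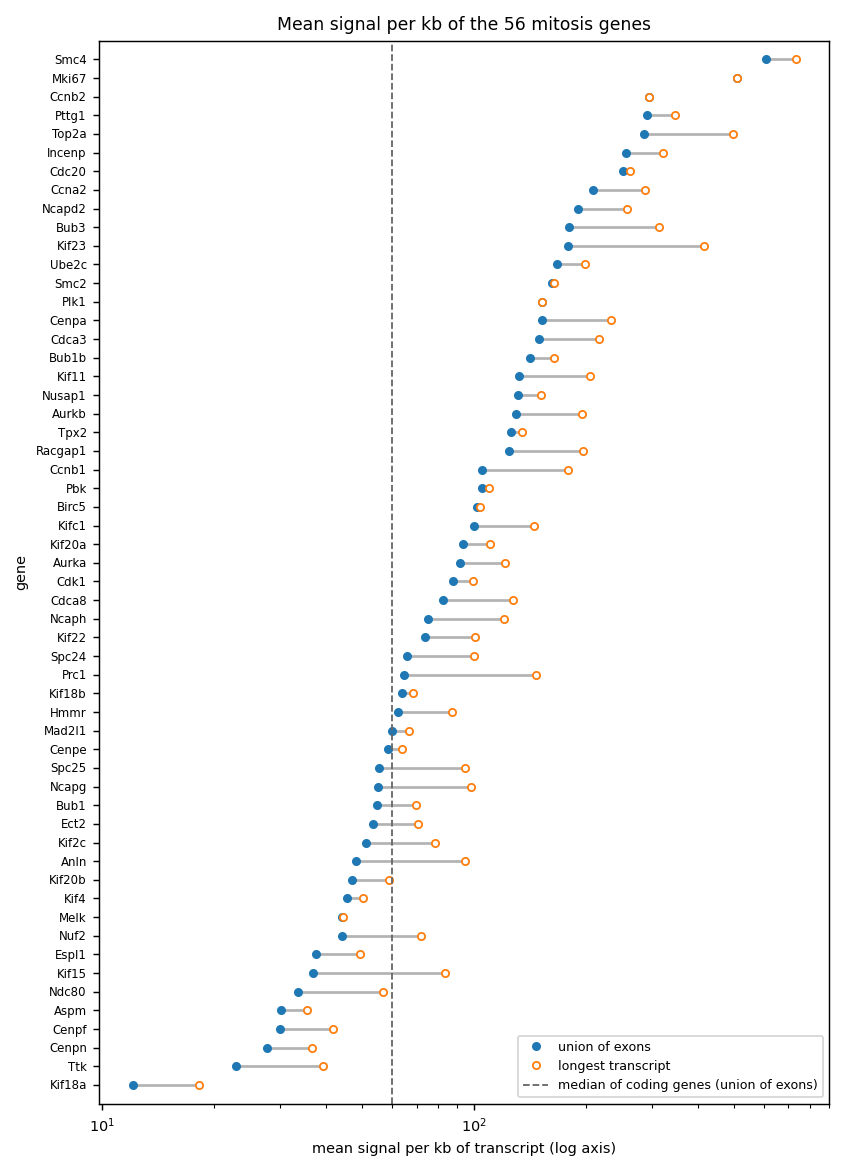
Mean signal per kb (x axis, log scale) of each of the 56 genes (y axis), over the union of the gene's exons (filled) or its longest transcript (open), with the coding median as a dashed line. Smc4 and Mki67 stand highest and Kif18a lowest, and the open and filled points of Kif23 lie furthest apart.

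Genes of chromosome structure had the 3 highest mean signals, although per kb Ccnb2 (295) and Pttg1 (291) were above Top2a. Smc4 (chr3:69004738-69034623), an ATPase subunit of condensin, had a mean signal of 3170 and 609 per kb. Mki67 (chr7:135689784-135716361), the Ki-67 antigen that coats mitotic chromosomes, had the highest mean signal, 5133, and 510 per kb. Top2a (chr11:98992943-99024189), which untangles sister DNA, had 2587 and 287 per kb. These 3 genes were the only members with a mean signal over 2000.

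The condensin subunits differed widely in level. Smc2, the partner of Smc4, had 162 per kb, although both sit in the same ring. Among the non-SMC subunits of condensin I, Ncapd2 (190 per kb) was above Ncaph (75.1) and Ncapg (55.1). Smc4 over Ncapg was 11.0-fold, or 7.50-fold with the longest transcript as the length. Of the condensin II counterparts, Ncaph2 stood at 366 per kb, so that Ncaph was at 0.205 of it, whereas Ncapd2 was 2.32-fold above Ncapd3. Ncapg was at 0.603 of Ncapg2.

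Among the genes that start mitosis, Ccnb2 (chr9:70407692-70421547; 295) led per kb, above Ccna2 (209) and Ccnb1 (105). Its kinase Cdk1 (chr10:69335146-69352938) stood at 87.8. With the longest transcript Ccna2 was at 288, close to Ccnb2 at 295. By mean signal Ccna2 (854) was above Ccnb2 (451), Ccnb1 (444) and Cdk1 (433), so the lead of Ccnb2 depends on the length. Ccnb1 was at 0.357 of Ccnb2, or 0.605 with the longest transcript. Plk1, the Polo kinase of spindle assembly and mitotic exit, had 153 per kb. Aurkb, the Aurora kinase of the centromere, had 129 and Aurka, that of the spindle poles, 91.4. Pbk (105) and Melk (44.2), kinases found in dividing cells, completed the class, and all but Melk were above the coding median.

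The chromosomal passenger complex corrects faulty attachments through Aurkb. Its scaffold Incenp had 257 per kb, 3.11-fold above the lowest subunit Cdca8 (borealin; 82.7). With the longest transcript Birc5 was the lowest, at 104 per kb. Survivin, from Birc5, stood at 102. All 4 subunits were above the coding median, and Incenp also had the highest mean signal of them, 1111, against 346 to 428 for the other subunits.

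Centromere and kinetochore genes had the lowest median of the 10 classes, 49.8 per kb, and 2 of 8 were above the coding median. Cenpa, the centromeric histone H3 variant, stood apart from the rest at 152 per kb. The subunits of the Ndc80 complex, which grips the microtubule, lay close together. Spc24 had 66.0, Spc25 55.4, Nuf2 44.1 and Ndc80 33.6 per kb, a range of 1.97-fold (1.77-fold with the longest transcript). The large proteins Cenpe (58.8), a kinetochore motor, and Cenpf (30.1) had mean signals of 507 and 465 but low levels per kb, their exon unions being 8620 and 15433 bases long. Cenpn, which binds Cenpa nucleosomes, had the lowest mean signal of all members, 91.6. The 27 further kinetochore genes showed a like low median of 45.3 per kb with 7 above the coding median, from Cenpk (8.44) to the Cenpa chaperone Hjurp (863).

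Per kb, checkpoint genes fell into a high and a low part. Bub3, which also works in interphase, had 180 per kb and Bub1b (BubR1) 141, both above the coding median. Mad2l1 had 60.0, just under the coding median of 60.2, with a counting error of at most 1.77%. The kinase Bub1 had 54.9 and the kinase Ttk (Mps1) 22.9. In the mitotic checkpoint complex, which joins Cdc20 with Mad2l1, Bub1b and Bub3, Cdc20 was the highest per kb and Mad2l1 the lowest, 4.20-fold apart. With the longest transcript as the length Bub3 took the place of Cdc20 and the range was 4.73-fold. By mean signal, without length correction, Bub3 (1264) was the highest of the complex and Cdc20 (471) the lowest. Mad2l1 (503), with an exon union of 8390 bases, then came between Cdc20 and Bub1b (603).

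The genes grouped under anaphase and its regulation had a median of 167 per kb. Securin, from Pttg1 (291), and Cdc20 (252), the mitotic activator of APC/C, led, followed by the ubiquitin-conjugating enzyme Ube2c (167) and Cdca3 (149). Separase, from Espl1, was lower, at 37.5 per kb, 7.76-fold below securin. Fzr1, the other activator of APC/C, had 256 per kb. Cdc20 was at 0.985 of it, and at 0.699 with the longest transcript. The counting error of Cdc20 was at most 1.83%. The 17 APC/C genes listed had a median of 138 per kb, and 15 were above the coding median, from Anapc10 (22.0) to Anapc2 (596).

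The 11 kinesins spread over 14.8-fold (22.8-fold with the longest transcript) with a median of 63.9 per kb. Kif23 (179), the motor of centralspindlin, and Kif11 (132), which pushes spindle poles apart, led. Kif15, which can share that task with Kif11, was at 36.8, 3.59-fold lower (2.45-fold with the longest transcript). Kifc1 had 100.06, but its close copy Kifc5b was listed with a mean signal of 111 beside 342 for Kifc1, and how reads were split between them is uncertain. Kif20a had 93.4, Kif22 73.6, Kif18b 63.9, Kif2c 51.1, Kif20b 47.1 and Kif4 45.4. Kif18a, which dampens chromosome movement, was the lowest member per kb, at 12.1, and at 0.189 of Kif18b.

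Of the spindle proteins, Nusap1 (131) and Tpx2 (126), which bundle or nucleate microtubules, were above Hmmr (62.6) and Aspm (30.2). Among the cytokinesis genes, Racgap1, the partner of Kif23 in centralspindlin, had 124 per kb, and Kif23 was 1.44-fold above it (2.11-fold with the longest transcript). Prc1 (64.9), which bundles midzone microtubules, Ect2 (53.6), which activates RhoA, and the ring protein Anln (48.1) were lower.

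**Figure D4:**
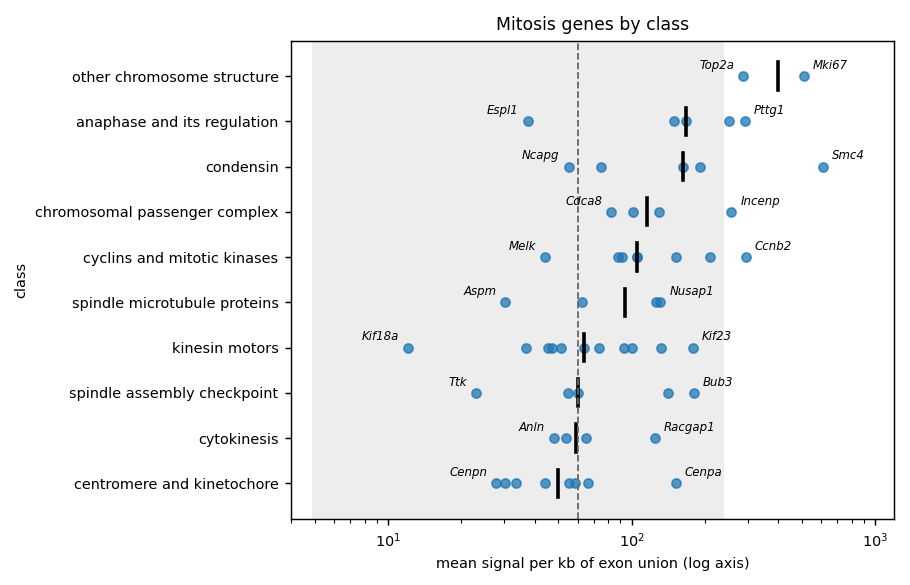
Mean signal per kb (x axis, log scale) of each gene (points) by class (y axis), with class medians as black bars, the coding quartiles in grey and the coding median dashed. Class medians run from 49.8 for the kinetochore to 399 for the pair Mki67 and Top2a, and the ranges of the classes overlap widely.

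The order of the classes depended in part on the length used. Mki67 and Top2a led and the kinetochore came last both with the union of exons and with the longest transcript, but 21 members had an exon union over 1.5 times their longest transcript (2.33 times for Kif23), and cytokinesis genes then moved from position 9 to 6. Within classes the highest and lowest genes differed by 1.78-fold to 14.8-fold (1.03-fold to 22.8-fold with the longest transcript), while the medians of all classes but the highest lay between 49.8 and 167. Genes are not replicates of a class, and no test was made between classes.

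Of the lists beside the members, the genes of DNA replication and S phase had nearly the same median, 92.9 per kb against 89.6, with 28 of 49 above the coding median. They ran from Orc1 (11.7) to the clamp Pcna (795). Cohesin genes were higher, with a median of 221 and 11 of 14 above the coding median. The cohesin core and its regulators act through interphase as well. Rad21 reached 1046, while the mitotic protector Sgo2a was at 27.5. Centrosome and spindle genes had a median of 57.6 with 9 of 21 above the coding median, from Fam83d (11.0) to Numa1 (590). The regulators of mitotic genes had a median of 88.4 with 15 of 24 above, from the phosphatase gene Cdc25c (9.61) to E2f2 (1179).

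**Figure D5:**
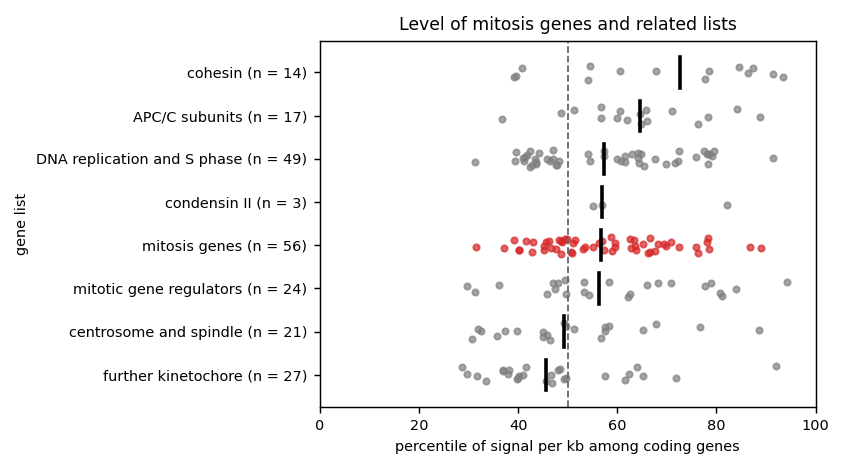
Percentile of each gene's signal per kb among coding genes (x axis) for the mitosis genes and related lists (y axis), with medians as black bars. Points are spread vertically for sight only, and the mitosis and S phase genes have medians at percentiles 56.7 and 57.3.

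The cell types averaged bear on these levels, since in bulk samples fewer dividing cells and less RNA per dividing cell cannot be told apart. The 10 neutrophil markers (Ly6g, S100a8, S100a9, Retnlg, Cxcr2, Csf3r, Il1r2, Mmp8, Mmp9 and Ltf) had a median of 33785 per kb. All 10 exceeded the members' highest value. Whether their RNA came from mature or from immature cells was not tested. The 10 monocyte markers had a median of 548, from Klf4 (105) to Itgam (10760). Itgam encodes CD11b, by which both subsets were sorted, so its value does not tell monocytes from granulocytes. The 5 promyelocyte markers, of a dividing precursor, had a median of 1045, from Ms4a3 (253) to Elane (1720), and the 5 early progenitor markers a median of 11.1. RNA of marker genes of other cell types was also listed. B cell markers had a median of 1347 (Cd79a 4065), tissue macrophage markers 4673, T and NK cell markers 170, erythroid markers 107 and platelet markers 41.0. No marker was at 0. Which of these cells the members' RNA came from was not tested. Lmna had a mean signal of 79.5 (13.6 per kb, percentile 32.2), a mean signal below that of all 56 members, as an average over wt and knockout libraries, so it gives no check of the deletion.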

How the data were processed

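Per the labels and the study's methods, the authors checked reads with FastQC 0.11.5 and Picard 1.119, removed adapters (cutadapt 1.14), mapped reads by the two-pass mode of STAR 2.5.2b on mm10, estimated counts per gene with RSEM 1.3.0 (GENCODE M12) and used DESeq2 1.20.0. The authors' deposited table gives 1 signal per gene, the mean of size-factor-normalised counts. Its other 6 columns hold the authors' own comparison (log2 fold change, standard error, test statistic, p-value, adjusted p-value and fold change) and were not used. No table per sample was used, so no groups were compared, and depth is known only as the summed mean signal, 25236459. The number of libraries was found from the exact steps between low values. The procedure was tested on simulated data with 8 libraries only, and other numbers of libraries were not simulated. Signal was divided by the union of exons in GENCODE M21, which matched 23004 of 23084 genes. Repeated symbols numbered 28. RefSeq promoters were searched with Python 3.11.15, numpy 2.4.6 and pandas 2.3.3, using the first start listed per gene. Members and lists were chosen with earlier results of these data known. All members were to be named, and of other lists the highest and lowest. Alternatives were the length, the genes compared with, the class summary and assignment, the promoter window, the motif letters and the tolerance. Read intervals, spacing and the promoters shown were chosen after values were seen.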

Additional observations from a re-analysis of the deposited data

Results flagged for a closer look

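Among the 8 libraries behind the mean signal, 1 had a size factor of 1.91, whereas the other 7 lay between 0.796 and 1.05. It was singled out because its gap to the next library was 0.775 of the whole range. The libraries carry no label and come from 4 groups, so they are not replicates of a group, and chance singles out about 1 set in 20. Size factors were divided out by the authors before averaging. How the members' levels in that library compare with the others was not tested.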

How the results depend on the processing

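The median percentile of the mitosis genes, 56.7, moved little with the length: it was 55.6 with the longest transcript and 57.9 without length correction. A minimum mean signal of 10 was asked of the members only. Every member passed, so it could not move the 56.7. Against coding genes with that minimum, the members' median was below the coding median, since 39.3% of members were above it. The share above the median coding gene, 64.3%, was 39.3% against coding genes with a mean signal of at least 10 and 98.2% against all genes of any type. Of the 10 classes, 6 kept their position with the longest transcript, 2 without length correction and 5 with geometric means, and 8 did with Cenpe moved to the motors and Kif20a and Kif23 to cytokinesis. CHR was found in 36 promoters in the window from 100 bases before to 50 after the start and in 37 with TTTGAA alone, against 38. CCAAT gave 31 in that window against 35, and E2F 5 against 6. A 10 times wider tolerance gave the same 8 libraries. Leaving out libraries in turn was not run, because the members' reads per library could not be solved. No paired analysis was possible because the values used are averages over all libraries. Depth limited the levels by a counting error of at most 4.14%.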

Other observations

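Members whose promoter held a CCAAT box had a median level of 91.4 per kb (35 genes) and those without one 48.1 (13 genes), with ranges that overlapped: 22.9 to 510 and 12.1 to 291. For the CHR the medians were 78.1 (38 genes) and 67.6 (10 genes). The split was made after the motifs had been seen, and genes are not replicates. The 56 members lay on 18 chromosomes, with 9 on chromosome 2.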
